A study of Mus musculus with 10 samples.

Results

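The cells described here are the vestibular cells that carried Ucma RNA in droplet (10x) single-cell libraries of 22-month-old CBA/J mice, an inbred laboratory strain. A unique molecular identifier (UMI) marks 1 captured transcript, and a cell was a member when it held at least 2 Ucma UMIs, a UMI of at least 1 of Spink8, Sox8, Car3 and Tprkb, and UMIs of fewer than 3 of the hair cell genes Myo6, Myo7a, Pou4f3, Tmc1, Kncn and Gfi1. Barcodes counted as cells from 200 detected genes and 1000 UMIs upwards, if under 25% of those UMIs were mitochondrial. Of 10424 such vestibular cells, 3182 met this rule (30.5%). Replicates 1, 3, 4 and 5 held 230 of 867, 1794 of 5438, 773 of 2448 and 385 of 1671 cells, a mean share of 28.5% ± 4.59 (SD, n = 4). In the cochlea of mice of the same age and strain, 108 of 7272 cells met it, 2, 59, 33 and 14 in the same order.

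All mice were wild type and untreated as far as the labels say, and the tissue was labelled as cochlear or vestibular sensory epithelium. Male and female mice were used. Several mice were pooled in each library, so that the libraries are the replicates and no value belongs to 1 animal. Each organ had 5 libraries, and replicate 2 repeated replicate 1. In the vestibule the pair shared 1633 cell barcodes and their gene sums differed by a chi-square of 0.120 per gene, less than the sampling noise, against 51.2 between replicates 1 and 4. In the cochlea they shared 1313 barcodes, and no other pair of libraries shared more than 41. Replicate 1 therefore stands for both, and n was 4 per organ. The vestibular libraries held 4150642, 24104850, 10318267 and 9482901 UMIs in replicates 1, 3, 4 and 5, of which the members held 738429, 4456339, 1819538 and 1031645. Members were shallower than the other vestibular cells of their library, with a median of 2173.5, 1826, 1811 and 2035 UMIs per cell against 2318, 2344, 2681 and 2975.5.

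Ucma encodes a small secreted protein first known from the growth zones of cartilage, rich in residues that are carboxylated with vitamin K. Cochlin, the product of Coch, is among the most abundant matrix proteins of the inner ear and is made by fibrocytes, the connective tissue cells of the spiral ligament and of the stroma beneath the vestibular epithelia. Inner ear fibrocytes carry gap junctions of connexins 26 and 30, by which they are held to move potassium away from the sensory cells. Chondrocytes, by contrast, are defined by type II collagen, aggrecan and matrilins.

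The start regions of the gene that chose the cells and of the gene that was abundant in them are shown because both held the core letters bound by RUNX factors, TGTGGT, read here on the reverse strand as the capitals. Both sequences run 5′ to 3′ along the gene from 250 bases before to 50 bases after the RefSeq start, on the plus strand of GRCm38.p6, at chr2:4975872-4976171 for Ucma and at chr12:51593091-51593390 for Coch.
Ucma: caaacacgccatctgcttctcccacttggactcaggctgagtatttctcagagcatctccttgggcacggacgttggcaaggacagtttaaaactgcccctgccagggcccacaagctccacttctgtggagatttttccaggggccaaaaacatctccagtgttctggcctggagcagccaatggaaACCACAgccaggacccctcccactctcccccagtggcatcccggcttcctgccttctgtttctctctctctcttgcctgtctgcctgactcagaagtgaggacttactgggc
Coch: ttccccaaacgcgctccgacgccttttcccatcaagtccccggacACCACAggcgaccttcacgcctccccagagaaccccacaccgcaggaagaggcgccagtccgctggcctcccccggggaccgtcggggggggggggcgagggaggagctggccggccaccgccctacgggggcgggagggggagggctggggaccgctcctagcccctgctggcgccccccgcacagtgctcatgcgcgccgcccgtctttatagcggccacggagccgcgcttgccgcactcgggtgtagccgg
Of the other genes whose start regions were read, Otos held a match too, and Sox8, Tprkb, Otor, S100b and Ptgds held none. On either strand, 16.8% of the 32851 start regions of this length held TGTGGT, so a match is common. Neither the Ucma nor the Coch region held ACAAAG or ACAATG, letters bound by SOX factors, which 28.6% of all start regions held on either strand. RUNX genes themselves were close to absent from the members, with 6.44 ± 5.22 UMIs per 1000000 (CPM, SD, n = 4) for Runx1, 4.75 ± 1.44 for Runx2 and 2.24 ± 1.20 for Runx3.

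Ucma lies at chr2:4976122-4985748 on the plus strand in GENCODE M21 (GRCm38), and Coch at chr12:51593341-51605771 on the plus strand. Levels here are UMIs per 1000000 UMIs of all members of a library, and because the reads come from the 3′ end they do not scale with gene length. Ucma stood at 3944, 3551, 3248 and 3126 CPM in replicates 1, 3, 4 and 5, a median of 8, 6, 6 and 5 UMIs in a cell. Car3, a carbonic anhydrase, stood at 2473, 2523, 2751 and 2815 CPM, and was the most often detected gene of the second criterion. Spink8, a protease inhibitor of the Kazal type, reached 431, 331, 351 and 430.4 CPM and the transcription factor Sox8 228, 189, 212 and 193 CPM. Of the members, 87.9% had a UMI of Car3, 65.7% of Tprkb, 32.1% of Spink8 and 32.1% of Sox8. As free RNA enters every droplet, the same shares were read in 303 vestibular macrophages, which were deeper (median 2733 UMIs per cell against 1865 in members), and were 41.9% for Car3, 7.59% for Spink8 and 4.95% for Sox8. The second criterion rested on Car3 alone in 581 members, on Tprkb alone in 164, on Sox8 alone in 53 and on Spink8 alone in 28. These 5 genes chose the cells, so their levels are a description and were not tested. S100b, a calcium-binding protein given with the label but not used in the rule, stood at 6289, 5344, 3998 and 4129 CPM. A UMI of it was found in 95.8% of members, against a background of 59.7% in vestibular macrophages and 51.8% in vestibular hair cells (median 4603 UMIs per cell). At the threshold, 491 members had exactly 2 Ucma UMIs, and 785 cells just outside had 1 and met every other condition. Coch reached 5 UMIs in 74.1% of the first and 52.7% of the second.

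**Figure D1:**
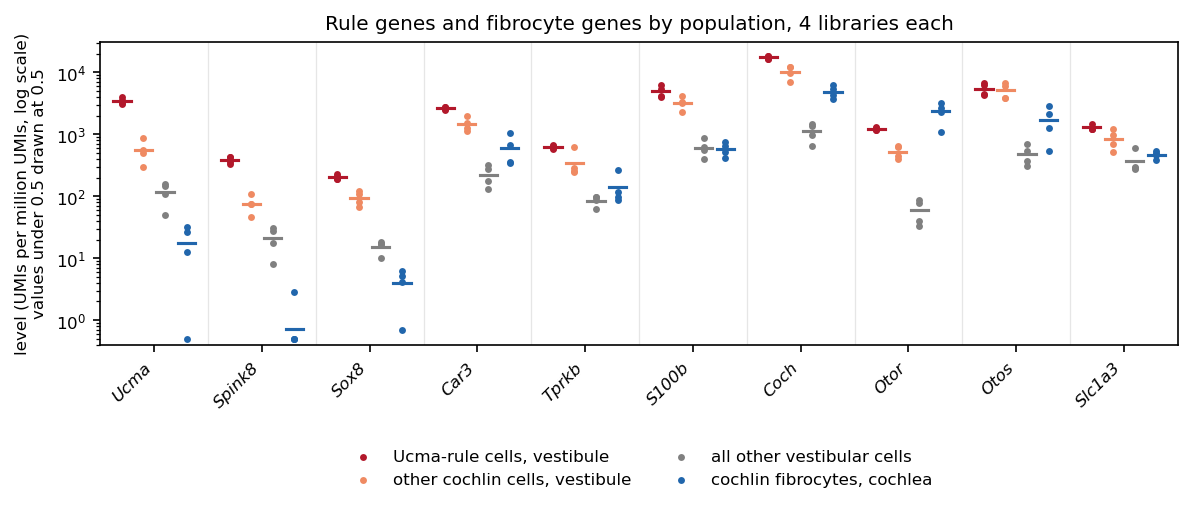
Level of each gene (UMIs per 1000000 UMIs of the cells of a population in a library, log axis) in 4 populations; each point is 1 of 4 libraries and each bar their mean. The Ucma-rule cells stand highest for Ucma and for Coch, while Ucma in cochlear cochlin fibrocytes is at or below 31.9 in each library.

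The label calls these cells cartilage-like, and the markers went against that name. Averaged over libraries, Coch was the most abundant marker of any cell type in the members, at 16750.4, 18127, 16711 and 18586 CPM in replicates 1, 3, 4 and 5, and 91.2% of members had at least 5 Coch UMIs. A Coch UMI was found in 98.3% of members, against a background of 70.6% in vestibular macrophages and 50.6% in vestibular hair cells. At least 2 Coch UMIs were found in 96.6, 47.2 and 26.8% of these cells. Otos (otospiralin), made by inner ear fibrocytes, stood at 4431, 6687, 4391 and 6258 CPM, Otor (otoraplin) at 1166, 1298, 1263 and 1181 CPM, and the glutamate transporter Slc1a3 at 1291 ± 132 CPM. The chondrocyte markers were low but not all near 0. Col2a1 averaged 9.66 ± 4.98 CPM and Acan 1.22 ± 0.624 CPM, and Matn1, Matn3 and Hapln1 had no UMI in any of the 4 libraries. Of the same list Sox9 stood at 125 ± 32.5 CPM, Col9a1 at 44.4 ± 6.81 CPM and Cnmd at 36.0 ± 15.7 CPM. Among other cartilage matrix genes, Col9a2 stood at 193 ± 28.9 CPM and Col11a2 at 124 ± 29.0 CPM. All 9 chondrocyte markers together summed to 216 ± 45.7 CPM, of which Sox9 made 125, against 25515 ± 2224 CPM for the 6 cochlin fibrocyte markers. The 7 osteoblast markers summed to 7.18 ± 3.07 CPM. The cells are therefore called Ucma-rule cells, and described by Coch, their leading marker, without a new name.

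Ucma and Coch went together in the vestibule. Of 3826 vestibular cells that met a rule for cochlin fibrocytes (at least 5 Coch UMIs, a UMI of Otor, Slc1a3 or Otos, and fewer than 3 hair cell genes), 3334 had a Ucma UMI (87.1%, 95% exact binomial interval 86.0 to 88.2%), and 2780 were members. The share was 93.0, 86.5, 88.3 and 85.0% in replicates 1, 3, 4 and 5. In the cochlea 42 of 1000 cells that met the same fibrocyte rule had a Ucma UMI (4.20%, interval 3.04 to 5.64%). The same share was read in macrophages, which should lack Ucma. It was 33.7% (interval 28.4 to 39.3%) in 303 vestibular macrophages at a median of 2733 UMIs per cell, against a median of 1792.5 UMIs in the vestibular cochlin cells, and 2.30% (interval 1.15 to 4.08%) in 478 cochlear ones. At the rule's own limit of 2 Ucma UMIs the shares were 76.2% in vestibular cochlin cells, 18.5% in vestibular macrophages and 7.47% in vestibular hair cells, so that this limit too was reached by cells of other types. With each cell thinned to 1000 UMIs the shares of cells with a UMI were 78.3% in vestibular cochlin cells, 22.4% in vestibular macrophages, 3.00% in cochlear cochlin cells and 1.26% in cochlear macrophages. By library, vestibular macrophages held 33.3, 40.1, 27.9 and 23.0%, below the vestibular cochlin cells in each of the 4. Cochlear cochlin cells with a UMI were 28 of 634, 7 of 116 and 7 of 207 in replicates 3, 4 and 5 (4.42, 6.03 and 3.38%) and 0 of 43 in replicate 1, which allows a share of up to 6.98%. Cochlear macrophages with one were 11 of 392 in replicate 3 (2.81%) and none in replicates 1, 4 and 5, whose 26, 26 and 34 cells allow up to 11.5, 11.5 and 8.82%. The macrophage share of those 3 libraries could thus not be set against the cochlin share at this depth, and the difference in the cochlea was not tested.

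**Figure D2:**
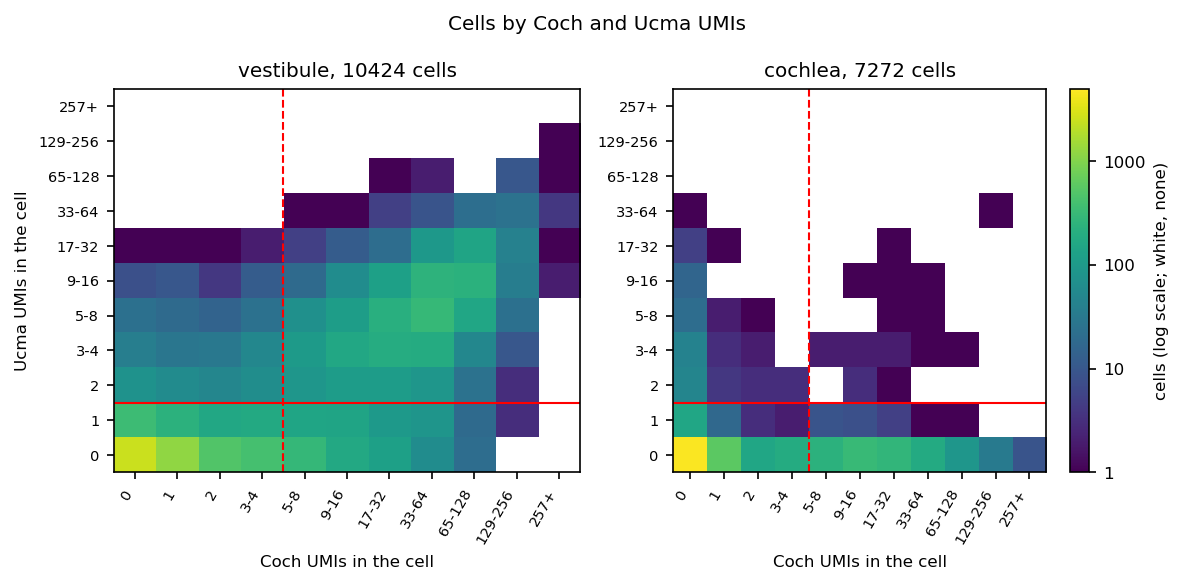
Number of cells (colour, log scale) by UMIs of Coch in the cell (horizontal) and UMIs of Ucma in the cell (vertical) in 10424 vestibular and 7272 cochlear cells. The solid line is the limit of 2 Ucma UMIs and the dashed line that of 5 Coch UMIs. Vestibular cells with many Coch UMIs have Ucma UMIs, whereas 1000 cochlear cochlin cells lie almost wholly along the bottom row.

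The most abundant transcript of the members was Ptgds, which encodes prostaglandin D2 synthase, a lipid-binding protein secreted into brain and inner ear fluids. It stood at 150123, 134922, 143940.0 and 147961 CPM in replicates 1, 3, 4 and 5. The lipid carriers Apod and Apoe stood at 13654 ± 1694 and 12764 ± 1668 CPM. Connexin 26 (Gjb2) stood at 1756, 1819, 1543 and 1738 CPM. Gjb6, the connexin 30 gene, stood at 937 ± 92.1 CPM. Transferrin (Trf) reached 2279 ± 196 CPM and pleiotrophin (Ptn), a secreted growth factor, 3327 ± 293 CPM. Gm42418, a locus that overlaps ribosomal RNA, stood at 3218, 14387, 37264 and 28209 CPM in replicates 1, 3, 4 and 5, lowest in replicate 1 and highest in replicate 4.

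Set against all other vestibular cells of the same library, the genes with the highest ratio among those at 100 CPM or more, apart from the rule genes, were Otor (20.4-fold), Coch (15.8-fold), the dicarboxylate transporter Slc13a3 (14.3-fold), the phosphatase inhibitor Ppp1r1a (13.2-fold), the calcium channel subunit Cacna1e (13.01-fold) and the sulfate transporter Slc13a4 (12.5-fold). These ratios of mean CPM are given without a test, since the cells were chosen from the same counts. The cystine transporter Slc7a11 (455 ± 42.3 CPM) and retinol-binding protein Rbp4 (1083 ± 153 CPM), both used as markers of another mesenchymal type, were also among the 20 highest ratios, at 9.93-fold and 9.88-fold.

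Coch stood higher in members with more Ucma, while other abundant genes did not rise at every step. At exactly 2 Ucma UMIs Coch averaged 8160 ± 2879 CPM (n = 4 libraries), at 3 to 4 UMIs 14083 ± 1080, at 5 to 9 UMIs 19431 ± 1181 and at 10 or more 20758 ± 2404. S100b stood at 2793 ± 702, 4466 ± 859, 5179 ± 1434 and 5690 ± 1043 CPM over the same steps. Otos stood at 3293 ± 1753, 4743 ± 1230.0, 7163 ± 2191 and 5403 ± 1506 CPM, Apod at 8145 ± 1158, 11865 ± 848, 15602 ± 2731 and 14791 ± 2516 CPM, and Ptgds at 76346 ± 25537, 129068 ± 18884, 165578 ± 22364.7 and 157264 ± 8468 CPM, each lower on average at the last step than at the one before. Epcam, a marker of epithelium, went the other way, from 742 ± 463 CPM at 2 UMIs to 199 ± 240 at 10 or more. The steps also differed in depth, with a median of 1563, 1526.5, 1760 and 2630.5 UMIs per cell, and in the share of cells that met the stricter set defined below, which itself uses Coch, at 63.3, 78.8, 87.9 and 92.6%. The part of depth and of other cell types in these levels was not tested.

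Markers of other cell types were present in some members and differed between libraries. Haemoglobin transcripts and Alas2 summed to 123 CPM in replicate 1 and to 18688, 25913 and 26276 CPM in replicates 3, 4 and 5, led by Hbb-bs. The 5 granulocyte markers summed to 1.35 CPM in replicate 1 and to 2820, 319 and 4364 CPM in the others, led by S100a9. B cell markers summed to 334, 3554, 268 and 370 CPM, led by Igkc. The 6 markers of nonsensory epithelium summed to 410, 477, 612 and 216 CPM, led by Epcam, and 119 members held at least 3 of them. A stricter set of 2656 members (83.5%) had at least 5 Coch UMIs and fewer than 3 markers of each of the blood, vessel, pigment, epithelial, neuronal, supporting cell and glial lists. In that set the epithelial markers summed to 52.1 ± 24.5 CPM and the haemoglobin list to 411 ± 185 CPM, while the fibrocyte markers stood at 30998 ± 2821 CPM. The stricter set was defined after the data were seen, and its sums of these lists follow in part from how it was chosen. It limits the members and leaves comparison cells from outside the rule as they were, so each comparison was also repeated with fewer than 3 markers of each of those lists required of the cells in both groups and no further limit on Coch, called the marker limit below.

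**Figure D3:**
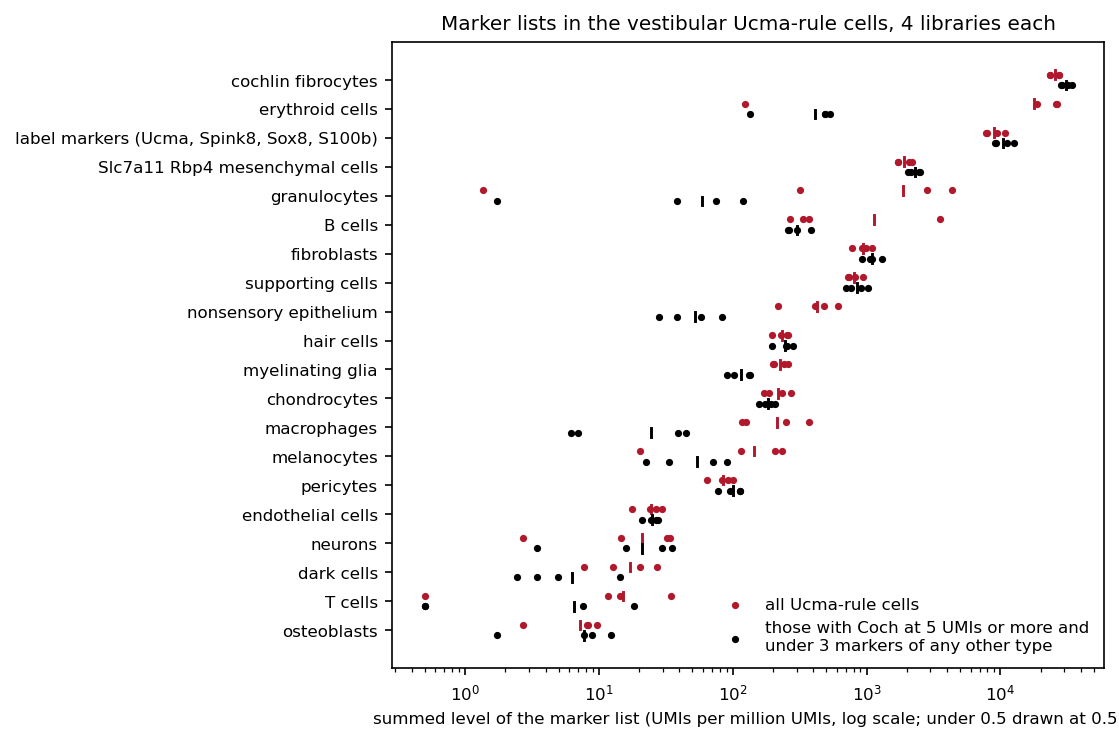
Summed level of each marker list (UMIs per 1000000 UMIs, log axis) in all vestibular Ucma-rule cells (red) and in the stricter set (black); each point is 1 of 4 libraries and each tick their mean. The fibrocyte markers lead with a mean of 25515 in all members. Erythroid, granulocyte and epithelial markers drop in the stricter set, which was chosen by a limit on them.

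The first comparison asked how members differed from the other cochlin cells of the same vestibular libraries. The 884 vestibular cells that met the fibrocyte rule but not the Ucma rule, and lacked UMIs of Slc7a11 and Rbp4 together, were summed per library and compared with the members in edgeR's quasi-likelihood test with Benjamini-Hochberg adjustment at 0.05, here and below. Of these cells 421 had no Ucma UMI, and the rule genes and the genes that chose the comparison cells were left out of the test. The comparison cells were shallower than the members. Their median was 1549, 1528, 1537 and 1552 UMIs per cell in replicates 1, 3, 4 and 5, against 2173.5, 1826, 1811 and 2035 in members. Of 8355 genes tested, 17 were higher and 19 lower in members (0.431% of the genes tested, 0.203% and 0.227% by direction), and for 0.18% and 0.144% the libraries did not overlap either. With the library as a block, which fits since both populations come from the same libraries, 131 were higher and 206 lower. The stricter set gave 207 and 318 with the comparison cells unfiltered, and the marker limit on both groups gave 13 and 44. Without scaling factors the split was 9 and 18 genes. With each cell thinned to 1000 UMIs it was 1 and 10 of 3998 tested, and the part of depth was not tested. Cells with UMIs of both Slc7a11 and Rbp4 had been left out of the comparison cells and kept among the members, where they were 858 of 3182. With those left out of the members too, no gene was higher and 2 were lower (237 and 304 of 6508 tested at an unadjusted p under 0.05 in edgeR), and of the 28 genes called over all members and tested again, 2 were called and all 28 had the same sign.

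Lama1, a laminin of basement membranes, stood at 70.4, 49.6, 81.3 and 60.1 CPM in members of replicates 1, 3, 4 and 5 and at 14.99, 9.09, 19.7 and 24.2 CPM in the other cochlin cells, a log2 fold change of 2.25 (SE 0.33, adjusted p = 0.0195). Ppp1r1a stood at 1300.1, 1133, 1230.0 and 1342 against 599.8, 506, 536 and 577 CPM, a log2 fold change of 1.26 (SE 0.20, adjusted p = 0.0271). For both genes the 2 groups of libraries did not overlap. Members with both Slc7a11 and Rbp4 stood at 145 ± 39.9 CPM for Lama1 and members with neither at 10.1 ± 8.36 CPM, next to 17 ± 6.48 CPM in the other cochlin cells. Without the members that had both, neither Lama1 (log2 fold change 1.08, adjusted p = 0.495) nor Ppp1r1a (1.11, adjusted p = 0.0659) passed. The signalling gene Rapgef5 (log2 fold change 1.29), the retinoic acid carrier Crabp2 (1.32) and the metalloprotease Mmp11 (1.24) were also higher over all members. Without the members that had both, they stood at 0.95, 0.73 and 0.85 and did not pass (adjusted p = 0.114, 0.545 and 0.334). These folds stayed on the same side, and the fit without such members had fewer cells and fewer genes tested. Cd79a, known from the B cell receptor, was higher as well, at 249 ± 57.3 against 66.7 ± 28.0 CPM (adjusted p = 0.0195), whereas of the other B cell markers Vpreb3 was lower (log2 fold change -2.32). With the marker limit, where B cell markers summed to 298 ± 54.5 CPM in members and 96.4 ± 48.6 CPM in the other cochlin cells, Cd79a stood at a log2 fold change of 1.83 (adjusted p = 0.000748), and it missed the threshold without the members that had both (1.49, adjusted p = 0.0659).

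Lower in members were Lum (lumican, a collagen-binding proteoglycan), at 55.5, 88.0, 72.5 and 62.0 CPM against 315, 115, 344 and 278 CPM (log2 fold change -1.75, SE 0.31, adjusted p = 0.0418), and the growth factor receptor gene Met, at 7.88 ± 3.81 against 71.5 ± 55.8 CPM (log2 fold change -2.68, adjusted p = 0.0195). The libraries did not overlap for either gene. Tgfbi, an extracellular matrix protein (log2 fold change -1.65), and the Notch target Hes1 (-2.29) were lower too. Without the members that had both Slc7a11 and Rbp4, Met passed (-2.84, adjusted p = 0.0182) and Lum did not (-1.68, adjusted p = 0.0862). Markers of other cell types moved with the lower genes: granulocyte markers summed to 1876 ± 2083 CPM in members against 10749.7 ± 15404 CPM in the other cochlin cells, the haemoglobin list to 17749.9 ± 12259.7 against 53711 ± 43753, supporting cell markers to 806 ± 95.9 against 1207 ± 427 and glial markers to 225 ± 27.3 against 395 ± 123. Under the marker limit, which brought granulocyte markers to 59.6 ± 52.1 and 147 ± 226 CPM and left supporting cell markers at 840.4 ± 134 and 1355 ± 289 CPM, Lum (-2.03), Met (-3.69) and Tgfbi (-2.08) were lower. S100b, at 4940.2 ± 1084 against 3217 ± 742 CPM, did not pass the test (log2 fold change 0.72, adjusted p = 0.246), passed it in the block (adjusted p = 0.0206) and missed it under the marker limit (adjusted p = 0.625). Of the 15 tested genes of a list of inner ear fibrocyte genes, 14 did not pass the test and 1, the ion transporter Slc4a11, was lower. Of 13 tested cartilage matrix genes none passed, with a median log2 fold change of 0.27, and of 13 tested genes of an immediate early and dissociation stress list none passed either (median -0.58; all genes tested, 0.00). Without replicate 3 no gene passed as higher and 2 as lower (185 and 232 at an unadjusted p under 0.05), without replicate 1 the counts were 2 and 3, and without replicate 5 they were 8 and 9. Without replicate 4 no gene passed edgeR's threshold in this comparison, with 306 higher and 387 lower at an unadjusted p under 0.05, while DESeq2 on all 4 libraries called 45 and 33.

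The second comparison set members against 209 vestibular cells outside the rule that held UMIs of both Slc7a11 and Rbp4, 8, 118, 51 and 32 in replicates 1, 3, 4 and 5. Cells that met the fibrocyte rule were kept among these 209. Coch in the 209 cells stood at 11898.5 ± 2002.6 CPM (SD, n = 4), against 17543.8 ± 957 in members, so they were not a group without Coch. Of 6321 genes tested, 56 were higher and 112 lower in members (2.66% of the genes tested, 0.886% and 1.77% by direction, and 0.838% and 1.33% with libraries that did not overlap), and 123 and 183 with the library as a block. Without scaling factors the split was 31 and 204, with the median of all genes shifted by -0.20 on the log2 scale. The counts were 20 and 60 without replicate 3, 36 and 79 without replicate 4, and 37 and 80 without replicate 5.

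Of 16 tested inner ear fibrocyte genes, Otor, Otos and Gm525 were higher, Kcnk2 was lower and 12 did not pass (median log2 fold change 0.47; all genes tested, 0.03). Coch (log2 fold change 0.86, adjusted p = 0.209) and Slc1a3 (0.01) were among those that did not pass, and Kcnk2 stood at 75.3 ± 9.88 CPM in members against 196 ± 151 CPM (log2 fold change -1.32, adjusted p = 0.043). Otor stood at 444, 401, 277 and 161 CPM in the comparison cells, below the lowest library of the members (1166 CPM), a log2 fold change of 2.23 (SE 0.29, adjusted p = 0.000262). S100b stood at 1282, 1614, 1405 and 785 CPM there, a log2 fold change of 2.20 (SE 0.32, adjusted p = 0.000696). Otos was higher by 2.23 on the log2 scale (adjusted p = 0.00656), and Gm525, a gene of the fibrocyte list, by 3.25 (adjusted p = 0.000168). Of 6 tested small leucine-rich proteoglycans, which bind collagen, 5 were lower and none higher, namely Prelp, Ogn, Dcn, Bgn and Fmod. Decorin (Dcn) stood at 396 ± 141 CPM in members and at 739, 2057, 1939 and 1942 CPM in the comparison cells (log2 fold change -1.88, SE 0.37, adjusted p = 0.00706). Further lower were Pcolce2, which aids collagen processing (-4.07), the caveolar gene Cavin2 (-3.29) and the interferon-induced Ifitm1 (-3.45). Markers of other cell types moved with these groups. The 1 tested endothelial marker, Cdh5, was lower in members (13.2 ± 2.98 against 133 ± 54.3 CPM, log2 fold change -2.94, adjusted p = 0.000132), and the 6 markers of that list summed to 24.6 ± 5.15 against 213 ± 102 CPM. Of 4 tested macrophage markers Tyrobp was lower (log2 fold change -2.21, adjusted p = 0.00889), in a list that summed to 215 ± 119 against 651 ± 244 CPM. Granulocyte markers, none of 5 past the test, summed to 1876 ± 2083 CPM in members and to 19753 ± 18278 CPM in the comparison cells. Under the marker limit on both groups granulocyte markers stood at 59.6 ± 52.1 and 2233 ± 3136 CPM and endothelial markers at 24.7 ± 2.42 and 138 ± 50.3 CPM, still unequal, with Cdh5 lower (log2 fold change -2.28) and Tyrobp not past the test (-0.87), and 78 genes were higher and 100 lower of 5135 tested. Cavin2 (-2.70), Ifitm1 (-3.50) and Dcn (-1.87) were lower there and Pcolce2 was not tested, and the part of the remaining granulocyte, macrophage and endothelial RNA was not tested.

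The third comparison concerned the organs. Cells that met the Ucma rule in the cochlea were few and unlike the vestibular ones: 19 of 108 had at least 5 Coch UMIs (17.6%), and Coch stood at 0, 977, 361 and 1247 CPM in replicates 1, 3, 4 and 5. Between vestibular and cochlear Ucma-rule cells, with 4 and 3 libraries of at least 5 cells, 1328 genes were higher and 1315 lower in the vestibule of 7853 tested (33.7%). As the cochlear cells were mostly low in Coch, these counts compare unlike cells. The stricter set left 1 cochlear library with enough cells, and no comparison is drawn from it. The marker limit left 3 cochlear libraries, with 1066 higher and 859 lower. Over all cells of the rule, leaving out replicate 4 gave 812 and 888.

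A further comparison was added after the data were seen, between the members and the 1000 cochlear cells of the fibrocyte rule (43, 634, 116 and 207 in replicates 1, 3, 4 and 5). These cochlear cells are called cochlear fibrocytes below after the rule alone. They carried 11163 ± 3729.5 CPM of Ptn and 3300.3 ± 739 CPM of Emilin2 next to 4899 ± 1131 CPM of Coch, and cell types among them were not separated. The sides were chosen by different rules, of which 2780 of the 3182 members met both, and the genes of either rule were left out. Of 9712 genes tested, 1143 were higher and 1055 lower in the vestibular members (22.6% of the genes tested, 11.8% and 10.9% by direction, and 6.89% and 10.3% with libraries that did not overlap). Without scaling factors the split was 787 and 1874, with the median of all genes shifted by -0.26 on the log2 scale. When all vestibular cells of the fibrocyte rule were used whatever their Ucma UMIs, so that both sides met the same rule, 1102 and 1015 genes passed, and under the marker limit on both groups 1042 and 1054 of 8678. The organ, the dissection and the dissociation of each organ cannot be told apart in this design. The counts were 680 and 721 without replicate 3 and 773 and 739 without replicate 4.

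Ptgds stood at 2759.8, 9410.2, 8033 and 16182 CPM in cochlear fibrocytes, below every vestibular library of members (lowest 134922), a log2 fold change of 4.24 (SE 0.56, adjusted p = 2.5e-05). In vestibular macrophages Ptgds stood at 20956 ± 14420.1 CPM, where free RNA, mixed droplets and the macrophages' own RNA were not told apart. S100b stood at 514, 412, 644 and 762.1 CPM in cochlear fibrocytes, a log2 fold change of 3.35 (SE 0.31, adjusted p = 6.1e-07), and Trf at 285, 343, 197 and 292 CPM (3.31, SE 0.26, adjusted p = 1.13e-07). For all 3 genes the organs did not overlap. Ptn, which is among the 20 most abundant genes in members, was lower in them than in cochlear fibrocytes. Ptn stood at 5939.5, 14670.5, 12598 and 11444 CPM in the cochlea (log2 fold change -1.48, SE 0.33, adjusted p = 0.00337).

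The list of inner ear fibrocyte genes was split, with 6 of 15 tested genes higher and 6 lower in members (median log2 fold change 0.12; all genes tested, 0.00). Among the higher ones were Gjb6 (log2 fold change 1.96, adjusted p = 0.00208), Atp1b2, the potassium and chloride cotransporter Slc12a2 (1.14), Gm525 and Slc26a4, an anion exchanger also listed as an epithelial marker. Gjb2, at 879 ± 921 CPM in the cochlea, missed the threshold (log2 fold change 1.33, adjusted p = 0.0516) and passed it with the replicate number as a block (adjusted p = 0.0026). Lower were the potassium channel Kcnk2 (75.3 ± 9.88 against 796 ± 697 CPM, log2 fold change -3.05, adjusted p = 4.69e-05), Atp1b1 (-2.27), Slc4a11 (-4.30), Car2 (-1.43), Crym and Pou3f4 (-1.10), a transcription factor of otic mesenchyme known from inherited deafness.

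Cartilage-related collagens stood higher in the vestibular cells although type II collagen did not. Of 13 tested cartilage matrix genes 10 were higher and 1 lower (median log2 fold change 2.48). The chains of type IX collagen Col9a1 (44.4 ± 6.81 against 11.01 ± 9.67 CPM), Col9a2 (193 ± 28.9 against 18.5 ± 9.99 CPM) and Col9a3 (61.4 ± 5.99 against 9.68 ± 1.83 CPM) were higher by 2.91, 3.39 and 3.01 on the log2 scale, with adjusted p = 9.58e-06, 5.18e-08 and 3.41e-08. Col11a2 (2.68), Matn2 (2.73) and Matn4 (2.48) were higher as well. Of 10 tested genes of the list of mineralization inhibitors and the vitamin K cycle 4 were higher (Mgp, Enpp1, Nt5e and Gas6) and 2 lower (Tnfrsf11b at -2.62 and the vitamin K-dependent Pros1 at -0.63), with a median log2 fold change of 0.33. Mgp, a vitamin K-dependent inhibitor of mineralization, stood at 167 ± 13.8 against 25.1 ± 24.0 CPM (2.78, adjusted p = 8.79e-05). Col2a1 was the lower one, at 9.66 ± 4.98 against 31.9 ± 10.5 CPM (log2 fold change -1.37, adjusted p = 0.00338), and the chondrogenic regulator Sox9 was lower too (125 ± 32.5 against 451 ± 411 CPM, -1.47, adjusted p = 0.0103) while Sox5 was higher (2.92). Under the marker limit on both groups, 8 of 12 tested cartilage matrix genes were higher and 2 lower.

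Among the genes with the largest change, Cacna1e stood at 303, 299.6, 375 and 339 CPM in members and at 0, 2.54, 3.45 and 4.47 CPM in cochlear fibrocytes (log2 fold change 6.98, SE 0.30, adjusted p = 6.44e-10), and Rbp4 at 972, 931, 1196 and 1233 against 0, 18.6, 2.76 and 9.84 CPM (6.94, SE 0.47, adjusted p = 2.67e-08). Neurog2, a neurogenic transcription factor, stood at 56.9, 28.3, 23.6 and 15.5 CPM in members and had no UMI in cochlear fibrocytes, which makes it at least 59.8-fold higher against a floor of 3 counts over the group. All 5 tested markers of the Slc7a11 and Rbp4 list were higher, with Slc7a11 at 2.88, Aldh1a2, a retinaldehyde dehydrogenase, at 2.60 and Slc6a13, a taurine and GABA transporter, at 4.59. Mia, Bricd5, Krt18, Otol1 and Nox3 were also among the 10 largest. Epithelial markers moved with these: Krt18 stood at 64.3 CPM in all members and at 16.7 CPM in the stricter set, Mia at 748 and 45.9 CPM and Nox3 at 28.5 and 2.29 CPM. There Mia kept a log2 fold change of 3.75 in place of 7.53, whereas Cacna1e and Rbp4 stood at 7.32 and 7.22. Other marker lists moved over all members as well. The B cell markers Cd79a and Igkc, supporting cell Otoa and Otogl, glial Mal and Sox10, melanocyte Dct, granulocyte Retnlg and Hba-a2 were higher. Supporting cell Sparcl1 and glial Pmp22 were lower, and the part of these cell types was not tested.

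In the other direction Emcn (endomucin), Emilin2, a matrix glycoprotein, and Fxyd2, a regulator of the Na,K-ATPase, were among the genes lower in members. Emcn stood at 4.06, 6.96, 4.95 and 0.969 CPM in members and at 1786, 2269, 1915 and 2105 CPM in cochlear fibrocytes (log2 fold change -8.38, SE 0.39, adjusted p = 1.48e-09). Emilin2 stood at 12.01 ± 10.3 against 3300.3 ± 739 CPM (-7.68) and Fxyd2 at 1.94 ± 1.80 against 1272 ± 568 CPM (-8.53). Emcn is also an endothelial marker. The 6 markers of that list summed to 24.6 ± 5.15 CPM in members and 2119.7 ± 202 CPM in cochlear fibrocytes, mostly Emcn. Of the 3 tested, Emcn and Flt1 (1.88 ± 2.24 against 74.3 ± 21.2 CPM, log2 fold change -4.53) were lower in members and Cdh5 did not pass, while Pecam1 was at 2.41 ± 1.12 CPM and Cdh5 at 24.0 ± 16.95 CPM in these cochlear cells. Under the marker limit on both groups Emcn stood at a log2 fold change of -8.75 and Flt1 at -4.83, and the part of endothelial RNA in these genes was not tested. The potassium channels Kcnb2 and Kcnj8 and the phosphatase gene Plpp4 had no UMI in the members, which makes them at least 227-fold, 171-fold and 192-fold lower than in cochlear fibrocytes against the same floor. Kcnj8 is also a pericyte marker, of a list that summed to 84.8 ± 15.7 CPM in members and 148 ± 32.2 CPM in cochlear fibrocytes. Immediate early and dissociation stress genes were lower in members in 13 of 16 tested, among them Fos (log2 fold change -4.81) and Egr1 (-3.71), with none higher. Their summed level was 1357, 1070.4, 1031 and 1038 CPM in members and 2222, 2747, 8032 and 2474 CPM in cochlear fibrocytes, and in macrophages 3421, 2798, 4121 and 2404 CPM in the vestibule against 4127, 2762, 6663 and 4150.4 CPM in the cochlea, so cochlear replicate 4 was the highest in both cell types.

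Signalling genes differed in both directions. Of 13 tested Wnt modulators 5 were higher in members, among them Wnt5a (794 ± 133 against 256.4 ± 147 CPM, log2 fold change 1.99) and the antagonist Frzb (3.64), and 7 were lower, among them the targets Lef1 (10.0 ± 2.50 against 149.9 ± 26.9 CPM, -3.74) and Axin2 (-1.04). Of 21 tested genes of the BMP and TGF-beta list 5 were higher, with the ligand Bmp6 at 4.11, and 10 lower, with the ligand Bmp4 at -1.64 and the target genes Id1 at -2.63 and Id3 at -1.37. The list's median log2 fold change was -0.38.

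**Figure D4:**
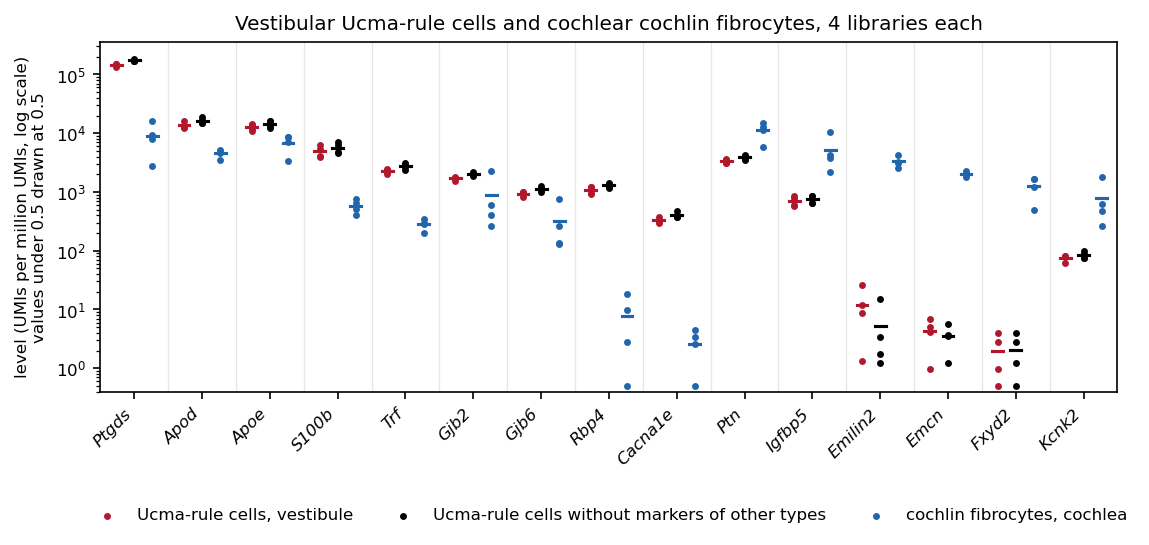
Level of 15 genes (UMIs per 1000000 UMIs, log axis) in vestibular Ucma-rule cells (red), in their stricter set (black) and in cochlear cochlin fibrocytes (blue); each point is 1 of 4 libraries and each bar the mean. Ptgds to Cacna1e stand higher in the vestibular cells on average and Ptn to Kcnk2 lower, with Emcn at 2019 in the cochlea and 4.23 in the members.

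The members were not uniform. UMIs of both Slc7a11 and Rbp4 were found in 858 members (27.0%), of 1 of the 2 in 1314 and of neither in 1010, and the share with both was 29.6, 26.5, 27.0 and 27.3% in replicates 1, 3, 4 and 5. Members with both were deeper, with a median of 2786.5, 2313, 2076 and 2455 UMIs per cell against 1919, 1590.5, 1586 and 1653 in those with neither. This comparison was added after the data were seen. Of 5354 genes tested, 349 were higher and 283 lower in members with both (11.8% of the genes tested, 6.52% and 5.29% by direction, and 5.86% and 4.2% with libraries that did not overlap), and 473 and 483 with the library as a block. DESeq2 called 274 and 442. Markers of several cell types moved with the split. Of 4 tested fibroblast markers Col1a2 (log2 fold change 1.82), Dcn (2.08) and Pdgfra (1.22) were higher in members with both, and the list summed to 1213 ± 127.8 CPM against 396 ± 133 CPM in members with neither. Col1a2 and Dcn also belong to the collagen and proteoglycan lists given below. The 1 tested pericyte marker, Pdgfrb, was higher (1.88, adjusted p = 0.000191), in a list that summed to 127 ± 28.0 against 33.5 ± 14.1 CPM. Glial Mal (-3.63) and Sox10 (-2.74) were lower, in a list that summed to 140.4 ± 32.8 against 416 ± 63.99 CPM. The stricter set and the marker limit use no fibroblast markers, and under the marker limit that list still summed to 1199.8 ± 131 and 568 ± 108 CPM, its part in the genes below not being tested. Epithelial markers stood at a sum of 71.5 ± 61.0 CPM in members with both and 1114 ± 433 CPM in members with neither, and in the stricter set, where they stood at 34.7 ± 10.7 and 82.7 ± 37.5 CPM, 116 genes were higher and 59 lower of 4046 tested. The marker limit, without a limit on Coch, gave 146 and 76. With each cell thinned to 1000 UMIs the counts were 124 and 53. Leaving out replicate 3 gave 181 and 150, and leaving out replicate 4 gave 202 and 142.

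Over all members, 3 of 3 tested fibrillar and network collagens, 5 of 7 matrix turnover genes and 3 of 4 small leucine-rich proteoglycans were higher in members with both genes and none lower (median log2 fold changes 1.82, 1.34 and 1.75; all genes tested, -0.01). In the stricter set 2 of 3, 3 of 6 and 3 of 4 were higher. Of 17 tested inner ear fibrocyte genes 8 were higher and 5 lower over all members, and of 15 in the stricter set 1 was higher and 3 lower. The values that follow are those of the stricter set. Vitronectin (Vtn) stood at 97.5, 121, 166 and 187 CPM in members with both genes and at 0, 15.1, 15.4 and 14.4 CPM in members with neither, in replicates 1, 3, 4 and 5 (log2 fold change 3.36, adjusted p = 6.2e-07). The organic cation transporter Slc22a2 stood at 33.9, 86.1, 62.9 and 73.0 against 0, 8.26, 3.07 and 7.18 CPM (3.47, adjusted p = 1.71e-05). Wnt6, a secreted ligand, stood at 75.6 ± 28.3 against 7.61 ± 6.66 CPM (3.35), Lama1 at 158 ± 46.7 against 15.8 ± 12.6 CPM (3.01) and Adra2a, an adrenergic receptor, at 55.1 ± 16.1 against 5.21 ± 7.24 CPM (2.85). The libraries did not overlap for any of these 5 genes. Aldh1a2 (1.84), Slc6a13 (1.86) and Igf2 (2.40), the other tested markers of the Slc7a11 and Rbp4 list, were higher as well, and so were the small leucine-rich proteoglycans Dcn (1.65), Ogn (2.22) and Prelp (2.32).

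Over all members Coch was higher in those with both genes, at 20652, 22814, 20204 and 20993 CPM against 12638, 13036, 12276 and 15825 CPM (log2 fold change 0.66, adjusted p = 0.0487), and Ptgds was too (0.74, adjusted p = 0.0165). The stricter set chose the cells of both groups for at least 5 Coch UMIs, so its Coch levels are no comparison. Under the marker limit, which does not use Coch, Coch (0.04, adjusted p = 0.958) and Ptgds (log2 fold change 0.13, adjusted p = 0.8294) did not pass. In the stricter set, genes lower in members with both were Gm525, at 326, 161, 216 and 149 against 1474, 979, 1004 and 1049 CPM (-2.47, adjusted p = 2.88e-07), S100b, at 4248, 4463, 3824 and 4357 against 12819.7, 9822, 5569.7 and 6983 CPM (-1.09, adjusted p = 0.00491), and Slc12a2 (-2.10). The libraries did not overlap for Gm525 or S100b, and under the marker limit these 3 genes were lower too (S100b -1.05, adjusted p = 0.00639). Over all members S100b missed the threshold (-0.41, adjusted p = 0.304). Mia, with the largest fall over all members (48.3 ± 43.0 against 2188 ± 1198 CPM, -5.25), stood at 33.2 ± 24.5 against 79.8 ± 71.6 CPM in the stricter set and did not pass there (-1.44, adjusted p = 0.0704), and was lower under the marker limit (-2.84, adjusted p = 2.13e-05).

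**Figure D5:**
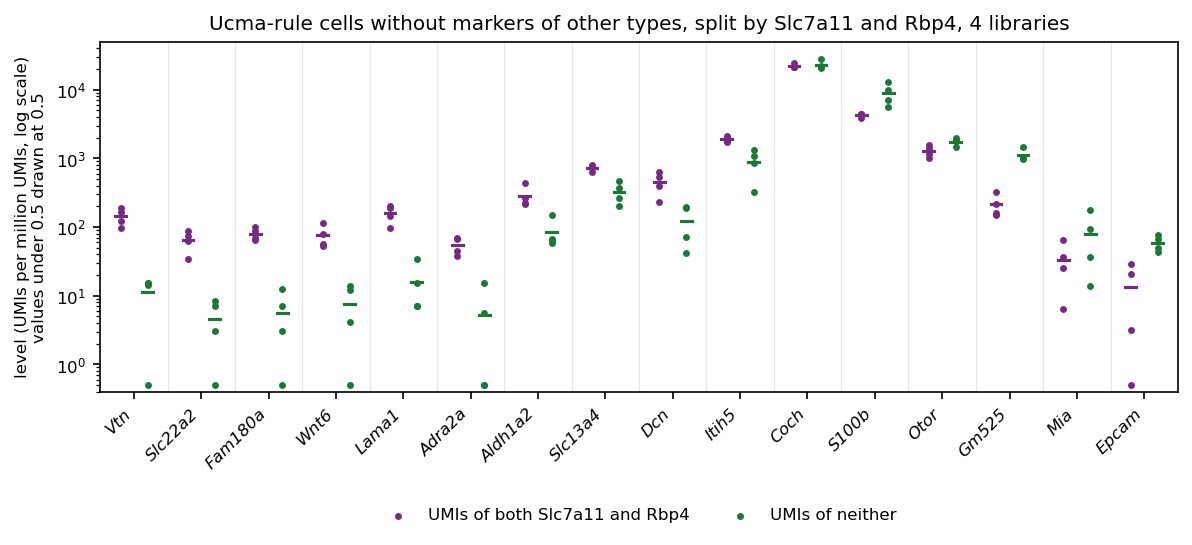
Level of 16 genes (UMIs per 1000000 UMIs, log axis) in the stricter set of Ucma-rule cells with UMIs of both Slc7a11 and Rbp4 (purple) and with UMIs of neither (green); each point is 1 of 4 libraries and each bar the mean. Vtn to Adra2a separate the groups and Gm525 is higher without both genes; Coch chose the cells of both groups (at least 5 UMIs) and is drawn for its level.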

How the data were processed

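The deposited files held UMI counts per gene and cell barcode, made by the authors with Cell Ranger (6.1.2 in the submitters' notes; the file headers also show 5.0.1 for replicates 1 and 2) on mm10. From them, cells were kept and Ucma-rule cells chosen as stated in the opening, doublets were not called, and raw counts were summed per library and population of at least 5 cells. The members, gene lists and comparison cells were chosen with earlier results of these data known. The sums were tested with edgeR 4.0.16 (TMM factors, filterByExpr, quasi-likelihood F test, Benjamini-Hochberg adjusted p under 0.05) in R 4.3.3, with DESeq2 1.42.0 as an alternative. The genes to name were drawn from the 20 most abundant, the 20 with the largest ratio, in each comparison the 10 that rose and the 10 that fell most with libraries that did not overlap, and called list members, of which some are printed and 1 is not reported here. The RUNX genes were given for the motif read in the start regions. The comparisons with cochlear fibrocytes and between members, the stricter set, the marker limit and the repeat without members that had both Slc7a11 and Rbp4 were added after the data were seen.

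The labels number the replicates. Populations of the same vestibular library share their mice, and their deviations from the group means correlated by 0.10 to 0.33. Same-numbered vestibular and cochlear libraries correlated by 0.19, 0.22, 0.23 and 0.24 in the comparison with cochlear fibrocytes. Intervals and floors cover counting error only. The p-values measure the spread between libraries of pooled mice. Positions came from GENCODE M21, which held 32158 of the 32285 feature IDs, and start regions from RefSeq (GRCm38.p6).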

Additional observations from a re-analysis of the deposited data

Results flagged for a closer look

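Of 199 groups of 4 libraries examined, 10 (5.03%) had a library whose gap to its nearest neighbour, divided by the range of the group, was above Dixon's 95% critical value for 4 samples, and chance gives about 1 in 20. In the members, replicate 1 stood apart for 2610035F20Rik at 82.61 CPM (51.39, 51.11 and 54.28 in the others) and for Gm525 at 719.1 CPM (407.7, 445.2 and 402.3). Among members with both Slc7a11 and Rbp4, replicate 1 stood apart for Mfap4 at 45.72 CPM. In the Slc7a11 and Rbp4 cells outside the rule, Ly6a reached 1024 CPM in replicate 3 (197.2, 89.05 and 60.38 in replicates 1, 4 and 5) and Il1rn 690.1 CPM in replicate 1 (116.8, 19.79 and 60.38). Near-zero levels gave 4 more: Rarres1 and Foxf2 at 0.2244 CPM in replicate 3 of the members, and Krt18 and Otol1 at 1.129 CPM in replicate 3 of the cochlear fibrocytes, each at 0 in the other libraries. Ptgir reached 28.54 CPM in replicate 1 of the cochlear fibrocytes (13.83, 13.13 and 15.21).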

How the results depend on the processing

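No gene named for its large change took the other sign under an alternative that tested it. Of these genes, over all alternatives that tested them, all 323 results against cochlear fibrocytes still passed, against Slc7a11 and Rbp4 cells 298 passed and 1 did not, within the members 262 and 1, between organs 274 and 10 (8 of the 10 in a fit with 1 cochlear library), and against other cochlin cells 211 and 102. Genes that an alternative did not test are not in these totals. Within the members 20 named genes were tested with the replicate block, but 5 when thinned, 8 at 5 Ucma UMIs and 9 under the marker limit. Over all genes called, fewer were called again: within the members 144 of 466 tested in the stricter set and 199 of 489 under the marker limit, against cochlear fibrocytes 1378 of 2059 and against Slc7a11 and Rbp4 cells 65 of 151 without replicate 3, and against other cochlin cells 0 of 35 without replicate 4. Of them, 13 and 2 within the members (stricter set and marker limit, Coch among the 13) and 8, 4 and 5 against cochlear fibrocytes (stricter set, marker limit and thinning) took the other sign. The cause of each move below was not tested. The share of vestibular cells in the rule was 38.1% at 1 Ucma UMI, 25.8% at 3, 18.9% at 5, 18.4% with no hair cell gene, 22.8% after thinning to 1000 UMIs and 25.5% in the stricter set, and 27.84 to 31.95% leaving out each replicate. Of 25 mean levels in the members (5 rule genes and the 20 most abundant), 9 moved by over 1 SD at 5 Ucma UMIs, 10 when thinned and 1 without Tprkb: thinned, Ptgds stood at 158637 CPM in place of 144237 and Coch at 20098 in place of 17544, and at 5 Ucma UMIs Ucma stood at 4449.7 CPM in place of 3467.1. Counts are given as higher and lower. Against other cochlin cells they were 9 higher without scaling factors, 45 and 33 with DESeq2, 121 and 278 with no filter, 131 and 206 with the replicate block, 1 and 10 thinned, 52 and 71 at 5 Ucma UMIs, 207 and 318 in the stricter set (comparison cells unfiltered), 44 lower under the marker limit, and 0 and 2 with cells of both Slc7a11 and Rbp4 left out of both groups (237 and 304 at an unadjusted p under 0.05), with 0 to 8 and 0 to 9 leaving out each replicate (at the 0 and 0, 306 and 387 at an unadjusted p under 0.05 in edgeR). Against Slc7a11 and Rbp4 cells they were 31 and 204 without scaling factors, 122 and 313 with DESeq2, 217 and 408 with no filter, 123 and 183 with the replicate block, 21 and 50 thinned, and 119 and 181 in the stricter set, with 20 to 63 and 60 to 163 leaving out each replicate. Between organs they were 435 and 222 thinned, 711 and 775 at 5 Ucma UMIs, 859 lower under the marker limit, and 9 and 15 in the stricter set, a fit with 1 cochlear library that does not measure how far the difference held, with 812 to 1317 and 888 to 1216 leaving out each replicate. Against cochlear fibrocytes they were 1945 higher with no filter, 451 and 516 thinned, and 1874 lower without scaling factors, with 680 to 1374 and 721 to 1251 leaving out each replicate. Within the members they were 124 and 53 thinned, 134 and 77 at 5 Ucma UMIs, 116 and 59 in the stricter set, 146 and 76 under the marker limit, and 442 lower with DESeq2, 888 with no filter and 483 with the replicate block, with 181 to 305 and 142 to 338 leaving out each replicate. Thinning lowers the depth and so the number of genes tested, to 2020 within the members.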
